A study of Mus musculus with 2 samples.

Results

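The p53 pathway was described in Terc-deficient mouse embryonic stem cells (mESCs) through 35 genes: Trp53 itself, its regulators and its best known target genes. They were chosen by name from the 38458 gene columns of the deposited tables, as genes known in this pathway, and all 35 had a column. Single-cell RNA-seq libraries made with the inDrops droplet method held the messenger RNA of single cells, counted as unique molecular identifiers (UMIs, 1 for each captured RNA molecule). There was 1 library of pre-ALT cells harvested at passage 100 (PD100) and 1 of post-ALT cells at passage 800 (PD800), where ALT is the telomerase-independent maintenance of telomeres. The sample titles and the study give these numbers as population doublings and another label gives them as passages. Both came from DKO741, a single Terc knock-out line made from E14 mESCs by targeting both alleles of Terc, the gene for the RNA part of telomerase, with a construct named TR-10. A neo selection gene was removed from the first targeted allele by Cre recombinase from an adenovirus. Both groups therefore lacked Terc, and no Terc+/+ cells were among these libraries. Cells were grown free of feeder cells for the experiment. As 1 clone was sampled with 1 library per time point, time point and library cannot be told apart, and no test between the time points was possible. Intervals below are 95% intervals and cover counting error only.

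The transcription factor p53, encoded by Trp53, is kept low by the ubiquitin ligase Mdm2 and is stabilised after DNA damage, telomere loss or other stress. It then binds paired copies of a short half-site in DNA and switches on genes that halt the cell cycle, trigger apoptosis, repair DNA or change metabolism, together with Mdm2 and other genes that feed back on p53. Mouse ES cells hold much p53 and divide rapidly with little of the arrest that p53 sets off in differentiated cells.

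After barcodes with fewer than 1000 UMIs or over 20% mitochondrial UMIs were left out, the PD100 library held 814 cells with 1826233 UMIs and the PD800 library 900 cells with 2580963 UMIs. The median cell had 2151 UMIs at PD100 and 2701.5 at PD800, with median mitochondrial shares of 1.23% and 4.42%. Stem cell markers were present at both time points, summing to 12200 and 12734 CPM (counts per 1000000 UMIs of the library). Dppa5a alone gave 8841 and 9676 CPM of this, so the sum does not show the other markers. Of 11 stem cell markers with at least 50 UMIs over both libraries, 3 were at least 2-fold higher at PD800 (Nanog, Esrrb and Klf4). At least 2-fold lower were 0, beside 9.22% of all such genes higher and 16.9% lower. Terc had 0 UMIs in both libraries. At least 5 of 17 endoderm markers were found in 40 PD100 cells and in 0 PD800 cells, and these markers summed to 1167 CPM at PD100 and 178 CPM at PD800. All 12 fibroblast markers were sparse, with 35 and 46 UMIs in all, and Col1a1 had 0 and 2. The libraries shared 21 barcodes by name, of which 8 were among the cells.

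All 35 members together held 4092 UMIs at PD100 and 4986 at PD800, or 2241 and 1932 CPM. Ratios of PD800 over PD100 were read for the 27 members with at least 50 UMIs over both libraries. The other 8 were sparse. Just inside this minimum were Xpc with 51 UMIs and Cdkn2a with 53, and just outside were Sesn2 with 43 and Polk with 37. Of the 27, 2 were at least 2-fold higher at PD800 (Rrm2b and Dcxr) and 10 were at least 2-fold lower (Ppm1d, Cdkn1a, Sfn, Plk3, Bbc3, Perp, Tnfrsf10b, Phlda3, Xpc and Ercc5), while 15 lay within 2-fold. Among all 6984 genes with 50 or more UMIs, 9.22% were at least 2-fold higher and 16.9% at least 2-fold lower, against 7.41% and 37.0% of the members. In either direction it was 12 of the 27 members and 26.1% of all genes. The counting interval of the ratio lay above 0 for 4 members (19.2% of all genes), below 0 for 14 (45.0% of all genes) and included 0 for 9. The median gene had a log2 ratio of -0.34, and the median member one of -0.28. Counted relative to the median gene, 2 members were 2-fold higher (Rrm2b and Dcxr) and 4 were 2-fold lower (Sfn, Plk3, Perp and Ercc5), where 13.9% and 7.79% of all genes were (21.7% in either direction). Intervals taken relative to the median gene lay above 0 for 9 members and below 0 for 10, beside 30.0% and 26.5% of all genes. Scaling by median-of-ratios size factors also centres the median gene on 0. Its equal split of 2 higher and 4 lower is therefore no separate check. The sums do not tell whether fewer cells expressed a gene or each cell held less of its RNA.

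**Figure D1:**
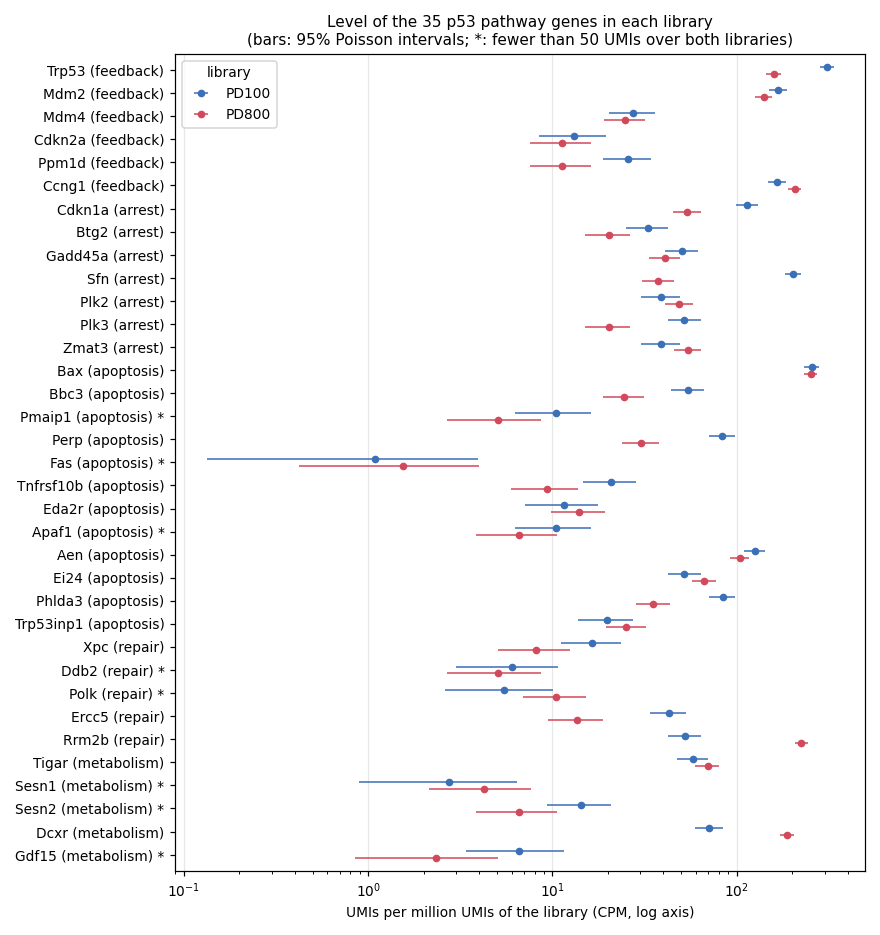
Level of each of the 35 members in CPM (log axis) in the PD100 (blue) and PD800 (red) library, ordered by role, with 95% Poisson intervals, and with an asterisk for the 8 members under 50 UMIs. Sfn stood at 203 CPM at PD100 and 37.6 at PD800, and Rrm2b at 52.6 and 224, with no overlap of the intervals, whereas those of Bax at 255 and 251 CPM overlapped.

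The regulators of p53 and the genes that feed back on it came first. Trp53 (chromosome 11, 69580359 to 69591873, plus strand of GRCm38) had 565 UMIs at PD100 and 409 at PD800, or 309 and 158 CPM. Its log2 ratio was -0.97 (-1.15 to -0.78), just inside 2-fold, or -0.62 relative to the median gene. Mdm2, the ligase that marks p53 for degradation and is itself a p53 target, had 306 and 362 UMIs. Its levels of 168 and 140 CPM were close, with a log2 ratio of -0.26 (-0.48 to -0.03) that turned to 0.09 relative to the median gene. The counting intervals of these ratios did not overlap, with Trp53 the lower.

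Mdm4, the partner of Mdm2 that blocks p53 activity, had 50 and 64 UMIs, or 27.4 and 24.8 CPM, and a log2 ratio of -0.14 (-0.70 to 0.42). Cdkn2a, whose locus encodes the Mdm2 inhibitor p19Arf and the cell cycle inhibitor p16Ink4a, had 24 and 29 UMIs, or 13.1 and 11.2 CPM, and -0.23 (-1.06 to 0.62). The counts did not separate the time points for either gene. Ppm1d, the phosphatase Wip1 that reverses p53 activation, had 47 and 29 UMIs, or 25.7 and 11.2 CPM, with a log2 ratio of -1.20 (-1.92 to -0.50). Ccng1, cyclin G1, a p53 target that acts through Mdm2, went the other way with 302 and 531 UMIs, or 165 and 206 CPM, a log2 ratio of 0.32 (0.11 to 0.52). It was the only 1 of the 6 regulators and feedback genes whose interval lay above 0. Their median was -0.24.

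The letters of the p53 half-site, a 10-base consensus that reads as its own reverse complement, were searched on both strands in RefSeq promoter windows of 300 bases (250 before and 50 after a start, GRCm38.p6). A half-site was held by 8.36% of all 32851 windows, and by 12 (33.3%) of 36 windows of the 27 members that had a window. A full site, with a pair of half-sites at most 13 bases apart, was held by 0.0731% of all windows (24) and by Cdkn1a alone among the members. Stretches of 60 bases upstream of the start are printed below for the regulator itself and 4 of its targets whose levels differ in direction here, with the half-sites in capitals, 5′ to 3′ on the strand of the gene.
Trp53 (chr11:69580259-69580318, plus strand): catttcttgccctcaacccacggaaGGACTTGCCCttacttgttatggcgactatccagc
Mdm2 (chr10:117710910-117710969, minus strand): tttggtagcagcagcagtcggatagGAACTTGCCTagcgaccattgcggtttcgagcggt
Ccng1 (chr11:40755437-40755496, minus strand): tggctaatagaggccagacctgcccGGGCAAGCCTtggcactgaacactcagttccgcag
Cdkn1a (chr17:29090892-29090951, plus strand): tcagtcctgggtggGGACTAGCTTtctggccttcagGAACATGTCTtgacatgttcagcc
Bax (chr7:45467065-45467124, minus strand): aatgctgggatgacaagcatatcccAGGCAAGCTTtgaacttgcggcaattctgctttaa
A match describes the letters only. Of the measured members with a half-site, Cdkn1a and Ppm1d were at least 2-fold lower at PD800, as were 16.9% of all genes. Trp53, Mdm2, Ccng1, Gadd45a, Bax, Aen and Ei24 were within 2-fold. Polk and Sesn1, which also held a half-site, were sparse. Ratios of members with and without a half-site were not compared.

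Genes of cell cycle arrest had the lowest median of the 3 roles with more than 5 measured members, at -0.71, and 3 of 7 were at least 2-fold lower at PD800, beside 16.9% of all genes. Relative to the median gene it was 2 of 7, beside 7.79% of all genes, and the median was -0.36. Cdkn1a, which encodes the cyclin-dependent kinase inhibitor p21 and is the textbook p53 target, had 208 UMIs at PD100 and 139 at PD800, or 114 and 53.9 CPM. Its log2 ratio of -1.08 (-1.40 to -0.76) was -0.74 relative to the median gene. Sfn, encoding 14-3-3 sigma, which holds cyclin B and its kinase in the cytoplasm, had 370 and 97 UMIs, or 203 and 37.6 CPM. At -2.43 (-2.77 to -2.10) it had the lowest ratio of the 27 members, and -2.09 relative to the median gene. In a split chosen after the values were seen, Sfn stood at 341 CPM in the 170 PD100 cells with a UMI of S100a6, Krt17 or Plaur and at 169 CPM in the other 644, a log2 ratio of 1.01 (0.53 to 1.48) in thinned cells, and Perp at 141 and 76.1 CPM, 0.89 (0.12 to 1.62). In the same split Cdkn1a at 0.14 (-0.60 to 0.83), Mdm2 at 0.13 (-0.47 to 0.70) and Phlda3 at 0.36 (-0.47 to 1.14) had intervals that included 0. All members summed, Sfn and Perp included, were at 0.24 (0.08 to 0.39). Only 10 PD800 cells had a UMI of S100a6, Krt17 or Plaur, and the part of such cells in the lower Sfn and Perp at PD800 was not tested. Plk3, a stress-responsive polo-like kinase, had 95 and 52 UMIs, or 52.0 and 20.1 CPM, and a log2 ratio of -1.37 (-1.89 to -0.87).

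Btg2, an antiproliferative gene, had 60 and 52 UMIs, or 32.9 and 20.1 CPM, with -0.71 (-1.27 to -0.15). Gadd45a, a DNA damage-inducible gene, had 92 and 105 UMIs, or 50.4 and 40.7 CPM, with -0.31 (-0.73 to 0.11). Plk2, also a stress-responsive polo-like kinase, had 71 and 126 UMIs, or 38.9 and 48.8 CPM, with 0.33 (-0.10 to 0.77). Zmat3, an RNA-binding zinc finger gene, had 71 and 140 UMIs, or 38.9 and 54.2 CPM, and 0.48 (0.06 to 0.91). The arrest genes ranged from Sfn far below 0 to Zmat3, whose interval lay above it, and did not share a direction.

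**Figure D2:**
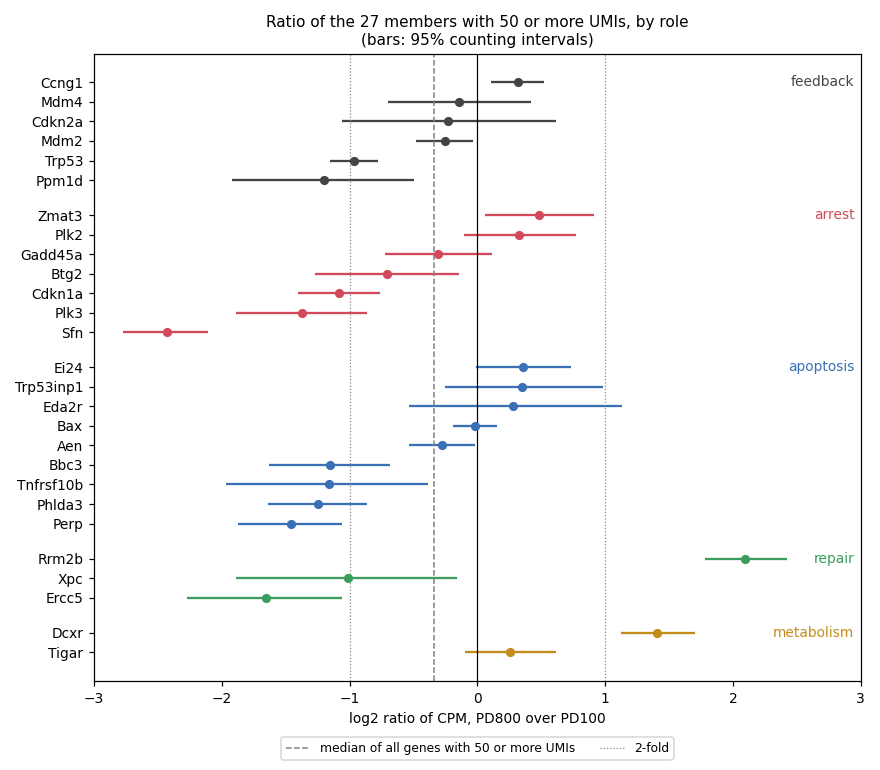
Log2 ratio of CPM, PD800 over PD100, for the 27 members with 50 or more UMIs, grouped by role, with 95% counting intervals, lines at 0 and at 2-fold (dotted), and the median of all 6984 genes at -0.34 (dashed). Sfn at -2.43 and Rrm2b at 2.09 lie at the ends. The signs of Mdm2, Mdm4, Cdkn2a, Gadd45a, Bax and Aen turned under at least 1 alternative of scaling or cell choice.

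Among genes of apoptosis, 4 of the 9 measured members were at least 2-fold lower at PD800, beside 16.9% of all genes, and the median was -0.28. Relative to the median gene it was 1 of 9, beside 7.79% of all genes, and the median was 0.06. Bax, which opens the outer mitochondrial membrane, had the most UMIs of this group, 465 at PD100 and 649 at PD800. Its 255 and 251 CPM gave a log2 ratio of -0.02 (-0.19 to 0.16), the closest to 0 of all members. Bbc3 (Puma), a BH3-only activator of Bax, had 99 and 63 UMIs, or 54.2 and 24.4 CPM, with -1.15 (-1.63 to -0.68).

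Perp, a membrane protein of desmosomes and a p53 effector of apoptosis, had 152 and 78 UMIs, or 83.2 and 30.2 CPM, with -1.46 (-1.87 to -1.06). Phlda3, a p53 target that restrains Akt, had 153 and 91 UMIs, or 83.8 and 35.3 CPM, with -1.25 (-1.64 to -0.86). Tnfrsf10b, a death receptor, had 38 and 24 UMIs, or 20.8 and 9.30 CPM, with -1.16 (-1.96 to -0.39). All 3 intervals lay below 0, and Perp was below the median gene by more than 2-fold as well.

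Aen, a nuclease of apoptotic cells, had 229 and 267 UMIs, or 125 and 103 CPM, with -0.28 (-0.54 to -0.02). Ei24, a protein of the endoplasmic reticulum, had 95 and 172 UMIs, or 52.0 and 66.6 CPM, with 0.36 (-0.01 to 0.73). Trp53inp1, a p53-induced nuclear protein, had 36 and 65 UMIs, or 19.7 and 25.2 CPM, with 0.35 (-0.26 to 0.98). Eda2r, a receptor for ectodysplasin, had 21 and 36 UMIs, or 11.5 and 13.9 CPM, with 0.28 (-0.54 to 1.13). The intervals of these 3 genes included 0. Of the sparse apoptosis genes, Pmaip1 (Noxa) had 19 and 13 UMIs, Apaf1, the core of the apoptosome, 19 and 17, and the death receptor Fas 2 and 4. These counts could not show a difference at this depth.

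The repair genes held the member with the highest ratio. Rrm2b, the p53-inducible small subunit of ribonucleotide reductase, had 96 UMIs at PD100 and 579 at PD800, or 52.6 and 224 CPM. The log2 ratio of 2.09 (1.78 to 2.42), or 2.44 relative to the median gene, ranked 225 among the 6984 genes. Ercc5, the endonuclease XPG of nucleotide excision repair, had 78 and 35 UMIs, or 42.7 and 13.6 CPM, a log2 ratio of -1.66 (-2.27 to -1.06). Xpc, a damage sensor of the same pathway, had 30 and 21 UMIs, or 16.4 and 8.14 CPM, with -1.01 (-1.89 to -0.16). Ddb2, its partner in damage recognition, was sparse with 11 and 13 UMIs, as was Polk, a translesion polymerase, with 10 and 27. Of the 3 repair genes measured, the higher one makes deoxynucleotides and both lower ones act in excision repair. Relative to the median gene, the interval of Xpc was -1.55 to 0.18 and included 0. No pattern by repair function can be read from so few genes.

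The annotation was searched for sequence that could touch the count of Rrm2b, after its values had been seen. Its transcripts shared 14 stretches of 20 bases, each found in at least 200 genes, with those of Atr, a p53 kinase gene that was also higher. The most widely shared of them, found in transcripts of 578 genes, is printed to show what the matching genes have in common.
Repeated stretch of Rrm2b and Atr: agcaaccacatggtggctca
In Rrm2b these stretches lay in 1 of 9 annotated transcripts, an isoform with a retained intron, and in 0 of its protein-coding transcripts. Among the other measured genes, 259 carried at least 10 of the stretches, with a median log2 ratio of 1.73, and 170 of them (65.6%) were at least 2-fold higher at PD800 and 9 at least 2-fold lower. The 6304 measured genes with none had a median of -0.39, and 5.73% were at least 2-fold higher. As the stretches were taken from Rrm2b and Atr, Rrm2b held them by definition, and no other of the 35 members held any. Other members carried different stretches of 20 bases found in at least 200 genes. Tnfrsf10b had 140 such stretches, Cdkn1a 87, Ei24 83 and Mdm2 64, beside 72 in Rrm2b. The part of the repeated sequence in the ratio of Rrm2b was not tested.

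In the metabolic role, Tigar, which lowers glycolytic flux, had 106 and 179 UMIs, or 58.0 and 69.4 CPM, with a log2 ratio of 0.26 (-0.10 to 0.62). Dcxr, an L-xylulose reductase, had 129 UMIs at PD100 and 484 at PD800, or 70.6 and 188 CPM, with 1.41 (1.13 to 1.70), or 1.75 relative to the median gene, and ranked 433. The other 3 were sparse: Sesn1 with 5 and 11 UMIs, Sesn2 with 26 and 17, both sestrins that respond to stress, and the secreted factor Gdf15 with 12 and 6. Of the pair of measured genes, only Dcxr was past 2-fold. The sparse counts were 2.74 and 4.26 CPM for Sesn1, 14.2 and 6.59 CPM for Sesn2, and 6.57 and 2.32 CPM for Gdf15. They went both ways, and no ratio was read for them.

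Dcxr lies close to the end of chromosome 11 (120725399 to 120727281, minus strand, GRCm38), with 13 measured genes after it. Looked at after the values were known, its 20 nearest measured neighbours had a median log2 ratio of 0.89, or 1.23 relative to the median gene. Of these, 7 were at least 2-fold higher and 0 at least 2-fold lower, beside 9.22% and 16.9% of all genes. The 20 neighbours of Rrm2b on chromosome 15 had a median of -0.32, close to that of all genes. Around Perp on chromosome 10 the median was -1.25 and 11 of 20 neighbours, spread from 7792891 to 30200560, were at least 2-fold lower. Around Tnfrsf10b on chromosome 14 it was -0.90, and 9 of 20 were lower, beside 16.9% of all genes. Around Sfn and Ercc5, also over 2-fold lower, the median was -0.49 each. Around Zmat3 and Tigar, both within 2-fold, it was 0.33 and 0.23. Around Trp53 it was -0.58, and around Ccng1, whose own ratio was above 0, -0.87. Neighbours were read around every member, and only these are named. The part of chromosomal position in these levels was not tested.

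**Figure D3:**
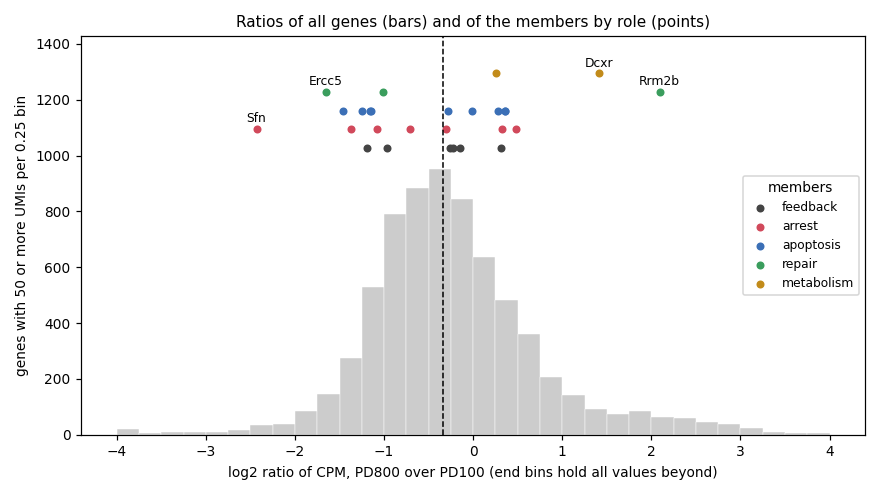
Number of genes with 50 or more UMIs in each bin of the log2 ratio, PD800 over PD100 (bars, 6984 genes), with the members as points coloured by role above them and the median of all genes (-0.34) as a dashed line. Most members lie within the bulk of the bars, with Sfn at -2.43 on the lower side and Dcxr at 1.41 and Rrm2b at 2.09 on the upper side.

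Other genes of the pathway were read as lists. Of 25 symbols listed for genes that act on p53, 24 had a column (Cop1 appears as Rfwd2) and 21 were measured, 3 of them at least 2-fold higher and 3 at least 2-fold lower at PD800, beside 9.22% and 16.9% of all genes, with a median of 0.03. Relative to the median gene, 3 were higher and 2 lower, beside 13.9% and 7.79% of all genes, with a median of 0.37. Sirt1, a deacetylase of p53, had 29 and 205 UMIs with a log2 ratio of 2.32 (1.76 to 2.94). Atr, the kinase of replication stress, had 44 and 187 UMIs with 1.59 (1.11 to 2.10). Both genes held the 14 repeated stretches named above, Atr by definition. The stretches lay in 1 of 13 annotated transcripts of Atr and in 1 of 7 of Sirt1. Both were isoforms with a retained intron, and 0 protein-coding transcripts of either gene held them. Aurka, the mitotic kinase that phosphorylates p53, had 323 and 655 UMIs with 0.52 (0.33 to 0.72). On the lower side were Usp10, a p53 deubiquitinase, at -1.37 (-1.70 to -1.04), Trp53bp1, an adaptor at DNA breaks, at -1.63 (-2.58 to -0.74), and Chek2, the kinase downstream of Atm, at -1.08 (-1.53 to -0.64).

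Of 42 further p53 target genes, 26 were measured, 0 were at least 2-fold higher and 7 at least 2-fold lower, beside 9.22% and 16.9% of all genes, with a median of -0.54. Relative to the median gene, 1 was higher (Rps27l) and 3 were lower, beside 13.9% and 7.79% of all genes. Rps27l, a ribosomal protein paralogue and p53 target, had 1712 and 4329 UMIs, or 937 and 1677 CPM, and was the highest without reaching 2-fold, at 0.84 (0.76 to 0.92). Psrc1, a spindle protein gene, at 0.45 (0.26 to 0.65) and Ccnk, cyclin K, at 0.61 (0.21 to 1.01) followed. Pml, the scaffold of PML bodies, at -1.25 (-1.69 to -0.82) and Trp53i13 at -1.43 (-2.11 to -0.76) were among the 7 lower genes. Of 28 genes that the DREAM complex represses when p53 and p21 are active, 27 were measured, with a median of -0.40. Of these, 1 was at least 2-fold higher and 2 at least 2-fold lower, beside 9.22% and 16.9% of all genes. Relative to the median gene, 1 was higher and 0 were lower, beside 13.9% and 7.79% of all genes. Mki67, the proliferation antigen, had 31 and 143 UMIs with 1.71 (1.14 to 2.32), and Birc5 (survivin) 889 and 1703 UMIs with 0.44 (0.32 to 0.56). Cenpf, a kinetochore protein, was at 0.31 (0.11 to 0.51). The replication genes Mcm5 at -1.32 (-1.52 to -1.12), Cdc6 at -1.18 (-1.59 to -0.78) and Mcm2 at -0.97 (-1.23 to -0.71) were on the lower side. Relative to the median gene, the median of this list was -0.06, and that of the further targets -0.20.

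Shares of cells were compared at equal depth, with each cell thinned at random to 1000 UMIs. At least 1 Trp53 UMI was found in 24.2% of PD100 cells (21.3 to 27.3) and 12.9% of PD800 cells (10.8 to 15.3), where the unthinned shares were 41.8% and 31.3%. Cdkn1a was found in 9.83% (7.87 to 12.1) and 3.89% (2.72 to 5.37), unthinned 15.4% and 10.6%. The share for Sfn was 14.3% (11.9 to 16.8) and 2.56% (1.63 to 3.81), unthinned 24.8% and 9.0%. All 3 genes were thus found in fewer cells at PD800. If all cells of a library shared a single Poisson mean, the shares would be 27.2% and 13.6% for Trp53. For Cdkn1a they would be 11.8% and 4.35%, and for Sfn 18.5% and 2.63%. Shares at this depth largely follow the mean, so they do not tell fewer expressing cells from less RNA per cell either.

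Mdm2 stood at 13.8% (11.5 to 16.3) and 13.2% (11.1 to 15.6), unthinned 20.4% and 25.3%, and Bax at 21.4% (18.6 to 24.4) and 23.4% (20.7 to 26.4), unthinned 39.2% and 48.0%. Their intervals overlapped at equal depth. Rrm2b was found in 4.42% (3.12 to 6.07) of PD100 and 18.2% (15.8 to 20.9) of PD800 cells, unthinned 11.3% and 42.6%. Dcxr was found in 6.39% (4.81 to 8.29) and 15.6% (13.2 to 18.1), unthinned 11.3% and 32.0%. A single Poisson mean gives 4.56% and 18.9% for Rrm2b, and 8.24% and 17.6% for Dcxr. Across the 27 members the thinned share was higher at PD800 for 10 and lower for 17. The same count was not made over all genes, whose median log2 ratio was itself below 0, at -0.34. No cell type in these libraries is known to lack the genes, so the share that free RNA gives could not be set beside these values.

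**Figure D4:**
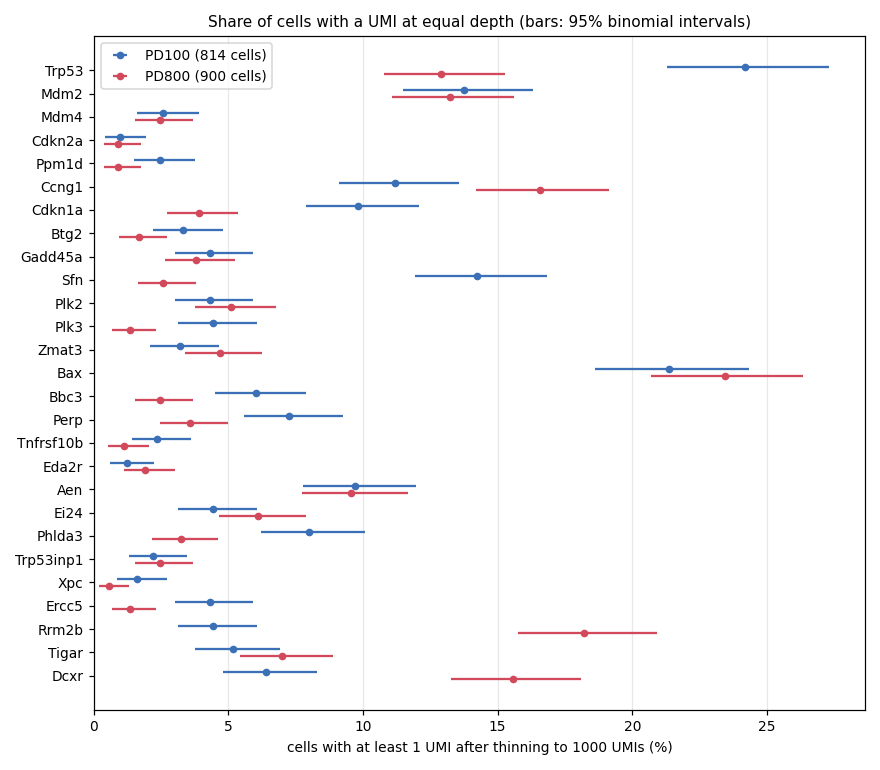
Share of cells (%) with at least 1 UMI of each of the 27 measured members after each cell was thinned to 1000 UMIs, at PD100 (blue, 814 cells) and PD800 (red, 900 cells), with 95% binomial intervals. The intervals do not overlap between the libraries for Trp53, Cdkn1a, Sfn, Plk3, Bbc3, Perp, Phlda3 and Ercc5, all lower at PD800. Nor do those of Ccng1, Rrm2b and Dcxr, all higher at PD800. Those of the other measured members, Mdm2 and Bax among them, overlap. The share of all genes without overlap was not computed.

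The spread from cell to cell was wider at PD100 for 18 of the 27 members, with a median variance over mean of 1.20 at PD100 and 1.14 at PD800, where a single Poisson mean gives 1. The same count was not made over all genes, so it cannot be read as a trait of the members. Sfn had 1.68 and 1.06, with means of 0.205 and 0.027 UMIs per thinned cell, and Dcxr 1.83 and 1.27. Plk3 had the opposite order, 1.54 and 2.67, with up to 5 UMIs in a PD800 cell. Summed over the 35 members, a thinned cell held 2.29 UMIs on average at PD100 and 1.97 at PD800, with a median of 2 in both. The variance over mean of this sum was 1.53 and 1.22. No member UMI was found in 125 PD100 cells (15.4%, where a single Poisson mean gives 10.1%) and in 150 PD800 cells (16.7%, against 14.0%). Without thinning, the variance over mean was 2.56 at PD100 and 2.58 at PD800, so that the order of the libraries turned.

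**Figure D5:**
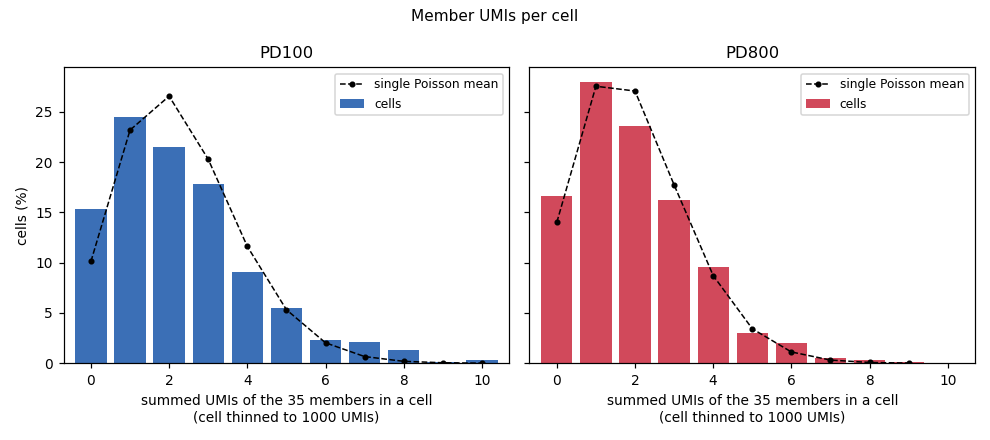
Share of cells (%) by the summed UMIs of the 35 members in a cell thinned to 1000 UMIs, at PD100 and PD800 (bars), beside the share that a single Poisson mean gives (dots). Cells with 0 member UMIs made up 15.4% at PD100 and 16.7% at PD800, above the 10.1% and 14.0% of the Poisson line, and the highest sums were 10 and 9.

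The 40 PD100 cells with endoderm markers were set beside the other 774 PD100 cells. Cdkn1a was higher in them, 260 against 106 CPM, a log2 ratio of 1.30 (0.63 to 1.90). Mdm2 at 0.91 (0.31 to 1.47) and Dcxr at 1.24 (0.36 to 2.03) were also higher, whereas Trp53 at -1.49 (-2.50 to -0.63), Sfn at -1.75 (-3.21 to -0.62) and Bax at -1.07 (-2.03 to -0.25) were lower. Summed over all members the groups were level, at -0.01 (-0.22 to 0.19). These cells held 12.0% of the Cdkn1a UMIs and 1.62% of the Sfn UMIs of PD100. Without them, the log2 ratios of PD800 over PD100 were -1.01 for Trp53, -0.97 for Cdkn1a, -2.48 for Sfn and 1.51 for Dcxr, so that Cdkn1a came just inside 2-fold and Trp53 just past it.

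Cells with a Cdkn1a UMI were set beside those without, in thinned cells of the same library. At PD100, the 80 cells with one held more Mdm2 than the 734 without, 375 against 159 CPM, a log2 ratio of 1.23 (0.60 to 1.82). Gadd45a at 1.98 (0.86 to 3.00) and Perp at 1.12 (0.17 to 1.98) were higher too, and Trp53 was level at 0.04 (-0.60 to 0.63). No other measured member had an interval that excluded 0 in this split. Their ratios went both ways, from -2.39 (-7.72 to 0.16) for Tigar to 1.05 (-0.38 to 2.26) for Rrm2b. The values of Mdm2, Gadd45a and Perp turned on which UMIs the thinning kept. With another random seed they were 0.62 (-0.16 to 1.32) for Mdm2, 0.58 (-1.14 to 1.94) for Gadd45a and 0.98 (-0.01 to 1.85) for Perp, all with intervals that included 0, and with cells thinned to 2000 UMIs 0.44, 0.72 and 0.24. At PD800, where 35 cells had a Cdkn1a UMI and 865 did not, Mdm2 was at 1.01 (-0.03 to 1.90). Dcxr, at 1.32 (0.48 to 2.07) with the first seed, was the only measured member there with an interval that excluded 0.

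Sums over the members moved less. In PD100 cells with a Cdkn1a UMI, the other members summed to 2638 CPM against 2114, a log2 ratio of 0.32 (0.10 to 0.53). This was 0.28 (0.05 to 0.50) without the endoderm-marker cells, 0.27 (0.05 to 0.48) with another seed and 0.25 (0.07 to 0.42) with thinning to 2000 UMIs. The sum includes Mdm2, Gadd45a and Perp. In the first thinning they held 30, 12 and 14 of its 211 UMIs in cells with a Cdkn1a UMI. In cells without one they held 117, 28 and 59 of 1552. A sum without them was not computed, so a rise shared by the remaining members is not shown. Divided by Mdm2 instead, a split chosen after the values were seen, the 112 PD100 cells with a Mdm2 UMI held more Cdkn1a than the 702 without, 241 against 107 CPM, at 1.17 (0.48 to 1.83). It was 1.15 with another seed, 0.84 with thinning to 2000 UMIs and 0.93 without the endoderm-marker cells. The other members, Cdkn1a among them, were at 0.25 (0.06 to 0.44) in this split. At PD800 the other members were at 0.24 (-0.10 to 0.57) in cells with a Cdkn1a UMI and at 0.10 (-0.11 to 0.30) in cells with a Mdm2 UMI, where the intervals included 0. The difference between the time points was not tested, and these intervals treat UMIs of all cells of 1 library as independent.

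Some counts cannot be given to a member alone. Exons of Cdkn1a, Gadd45a, Plk3, Ei24, Rrm2b, Tigar and Ddb2 overlap those of a gene on the other strand, and exons of Bax overlap those of Gm45808 on the same strand. Stretches of 50 bases, the length of a read, were shared with another gene by 12 of the 35 members, and 7 shared at least 100 with 1 gene. These were Mdm4 with Mdm4-ps (1092 stretches), Rrm2b with Gm8616 (284), Sfn with Gm7850 (184), Trp53 with Trp53-ps (154), Bax with Gm45808 (145), Tnfrsf10b with Gm15574 (144) and Aen with Gm15298 (100). Of these genes only Gm15298 had a column of its own, with 2 UMIs at PD100 and 0 at PD800. Cdkn1a shared 61 stretches with Trim27, which has a column with 305 and 257 UMIs.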

How the data were processed

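Per the labels and the methods of the study, the authors made the deposited tables with the inDrops pipeline, mapping reads to a transcriptome built from GRCm38/mm10; the annotation release and strand setting are not given in the sources used here. The values are raw counts (UMIs per barcode and gene, whole numbers), and the authors' later steps used Scanpy. The study's filter (at least 1000 UMIs, at most 20% mitochondrial) was applied here and left 814 and 900 cells, more than the methods state. Scrublet (Scanpy 1.11.5) called 14 and 8 doublets, which were kept.

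Counts were summed per library and divided by the library total. Sums have exact Poisson, ratios exact conditional (Clopper-Pearson) and shares exact binomial 95% intervals. PCR and droplet losses are not covered. 1 UMI was 0.548 CPM at PD100 and 0.387 at PD800. With 1 library per time point nothing was tested. Members, roles and lists were chosen with earlier results of these data known. Every member is named, and from each list the 3 measured genes at either end, ranked by the interval end nearer to 1, are named, except 1 gene that is not reported here. The repeat, neighbour and promoter searches and the splits of cells by Mdm2 and by S100a6, Krt17 or Plaur were chosen after values had been seen. Coordinates are from GENCODE M21. Scripts used Python 3.11.15, NumPy 2.4.6, SciPy 1.17.1 and pandas 2.3.3, and were tested on simulated data.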

Additional observations from a re-analysis of the deposited data

Results flagged for a closer look

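Barcodes left out by the filter on cells, which entered only the alternative without that filter, also held UMIs of the members: 574 at PD100 and 776 at PD800 over all 35. Rrm2b had 8 and 103 UMIs there, or 32.4 and 225 CPM, a log2 ratio of 2.79 (1.76 to 4.04). Sfn had 65 and 18 UMIs, or 263 and 39.3 CPM, a log2 ratio of -2.75 (-3.59 to -1.97). Of the 27 measured members, 24 had the sign found in the cells and 3 the other sign (Gadd45a, Plk2 and Tigar). Gadd45a was at 1.18 (-0.27 to 2.94), and Plk2, with 15 and 12 UMIs, at -1.22 (-2.44 to -0.02), against 0.33 in the cells. These barcodes belong to the same libraries and are no second sample.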

How the results depend on the processing

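Of the 27 measured members, 21 kept 1 sign under all 9 alternatives of scaling and cell choice, and 25 did so relative to all genes. Of the 12 past 2-fold, 5 stayed past it under each (Sfn, Perp, Ercc5, Rrm2b and Dcxr). With median-of-ratios scaling, 4 members were at least 2-fold lower rather than 10, the metabolic median was 1.17, and 4 of the further targets and 1 DREAM gene were past 2-fold rather than 7 and 3. This scaling centres the median gene on 0, with 13.9% of genes higher and 7.79% lower. With at least 2000 UMIs per cell, 4 members were lower, and the repair median was 0.33, since fewer repair genes were measured. Thinning each cell to 1000 UMIs gave a repair median of 2.17, 4 further targets and 5 DREAM genes past 2-fold. A minimum of 20 UMIs gave a repair median of -0.26 and a metabolic one of 0.26, and a minimum of 100 UMIs a repair median of 0.22. These medians rest on few genes. The variance over mean of the summed members was 2.56 at PD100 and 2.58 at PD800 without thinning, and 1.97 and 1.49 with thinning to 2000 UMIs. In alternatives chosen after seeing the data, the ratio in PD100 cells with over without a Cdkn1a UMI came to 0.44 for Mdm2 and 0.72 for Gadd45a with thinning to 2000 UMIs, and to 0.58 for Gadd45a with another seed. The cause was not tested. No paired analysis was possible because each time point had 1 library, and no library could be left out. Genes with few UMIs limit the depth: 3 UMIs were 1.64 CPM at PD100 and 1.16 at PD800.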
